A study of Homo sapiens with 9 samples.

Results

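The genes described here encode 9 enzymes that make, recycle or break down the deoxynucleotides from which DNA is built: TYMS, TK1, RRM1, RRM2, DTYMK, DUT, DCK, CAD and SAMHD1. They were chosen by name, with earlier results of these data known. A row was found for 9 of 9 among the 58381 Ensembl gene identifiers of each library. All 9 were among the 13777 genes tested, which had at least 1 FPKM (fragments scaled to transcript length and to the size of the library) in at least 3 of the 9 libraries. Expression had been measured by RNA sequencing in HK1, an established line from a nasopharyngeal carcinoma, with total RNA as the starting material. The cells had received 100 nM siRNA against E2F1 (3 libraries), siRNA against E2F3 (3 libraries) or a non-targeting control siRNA (3 libraries) and were grown for 48 h in DMEM with serum. All groups were thus transfected cells, and cells without any siRNA are not analysed here. The labels name a single line, give no number of siRNAs per target, and leave unsaid if libraries in a group had cultures of their own. The p-values below therefore measure the spread between these libraries, which may be technical.

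DNA synthesis draws on deoxynucleoside triphosphates of every base, and cells make them along a de novo route and a salvage route. De novo, ribonucleotide reductase turns ribonucleoside diphosphates into deoxynucleoside diphosphates, and thymidylate synthase methylates dUMP to dTMP. In the salvage route, kinases phosphorylate deoxynucleosides taken up from outside or released from DNA. E2F1 and E2F3 are transcription factors that the retinoblastoma protein restrains, and several genes of DNA precursor synthesis are textbook E2F target genes. Levels of many of these enzymes rise as cells enter S phase.

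E2F1 itself was at 7.17, 7.95 and 7.33 FPKM after E2F1 siRNA, at 21.2, 23.0 and 21.0 FPKM after E2F3 siRNA, and at 19.9, 19.5 and 20.2 FPKM with control siRNA. E2F3 was at 29.2, 27.8 and 29.2 FPKM after E2F1 siRNA, at 12.6, 10.5 and 11.0 FPKM after E2F3 siRNA, and at 24.7, 27.2 and 24.4 FPKM with control siRNA. Each targeted gene was thus lowest in the libraries labelled with its own siRNA, with no overlap. On the log2(FPKM + 1) scale, used for every fold change below, E2F1 fell by 1.30 after its own siRNA and E2F3 fell by 1.10 after its own. The adjusted p-values were 3.71e-07 and 3.58e-06 (limma, two-sided, Benjamini-Hochberg over 13777 genes, with 0.05 as the threshold throughout).

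Steps in the FPKM of short single-exon genes put library depth, relative to control replicate 1, at 0.892 to 1.14 after E2F1 siRNA, 0.971 to 0.982 after E2F3 siRNA and 0.854 to 1.21 with control siRNA. The absolute depth was not worked out. Mitochondrially encoded genes made up 14.03 to 15.3% of all FPKM after E2F1 siRNA, 16.4 to 17.1% after E2F3 siRNA and 15.6 to 16.5% with control siRNA. Genes at 1 FPKM or more numbered 13715 to 13818 after E2F1 siRNA, 14114 to 14213 after E2F3 siRNA and 13862 to 13884 with control siRNA, without overlap. All 8 squamous epithelial markers, among them KRT5, KRT14 and TP63, had a mean of at least 1 FPKM over the 9 libraries, with KRT17 the highest at 512 FPKM. Their summed level was 1004 to 1065 FPKM after E2F1 siRNA, 923 to 1002 FPKM after E2F3 siRNA and 1571 to 1618 FPKM with control siRNA. Of 4 blood cell markers HBB alone reached a mean of 1 FPKM, and of 5 endothelial and fibroblast markers COL1A1 alone did, while PTPRC, CD3E, PECAM1, VWF, PDGFRB and COL3A1 had group means no higher than 1.0 FPKM.

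Windows around the RefSeq start sites (250 bases before to 50 after the start, GRCh38.p14) were found for all 9 genes, 14 windows in all. They were searched on both strands for 3 forms of the E2F recognition sequence (TTTGGCGC, TTTCGCGC and TTTCCCGC) and for the CCAAT box, which factor NF-Y binds. None of these 4 motifs contains another. Of 35116 such windows of all genes, 0.652% held TTTGGCGC, 0.515% held TTTCGCGC, 1.63% held TTTCCCGC, 2.74% held any of the 3 and 34.6% held CCAAT. Among the 9 genes, 3 had a window with an E2F match (TYMS, DCK and DUT) and 6 had a window with CCAAT (RRM1, RRM2, TK1, CAD, DTYMK and SAMHD1). Counted by window, as the shares of all genes are, 3 of the 14 held an E2F match and 7 held CCAAT. The 5 genes whose level passed a test in at least 1 comparison are shown here so that their start regions can be read side by side. Each line runs 5′ to 3′ along the gene's own strand, from 250 bases before the start to 30 after it, and capitals mark the matches. A match on the opposite strand reads as GCGGGAAA, GCGCCAAA or ATTGG. For RRM2 and TK1, which have more than 1 window, the window with the most CCAAT matches is given.
TYMS, chr18:657403-657682, plus strand: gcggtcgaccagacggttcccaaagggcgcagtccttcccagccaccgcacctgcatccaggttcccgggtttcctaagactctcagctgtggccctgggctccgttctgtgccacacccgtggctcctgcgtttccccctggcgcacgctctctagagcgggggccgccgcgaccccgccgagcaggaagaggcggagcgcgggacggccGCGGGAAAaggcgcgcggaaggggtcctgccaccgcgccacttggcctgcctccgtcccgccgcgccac
RRM2, chr2:10122489-10122768, plus strand: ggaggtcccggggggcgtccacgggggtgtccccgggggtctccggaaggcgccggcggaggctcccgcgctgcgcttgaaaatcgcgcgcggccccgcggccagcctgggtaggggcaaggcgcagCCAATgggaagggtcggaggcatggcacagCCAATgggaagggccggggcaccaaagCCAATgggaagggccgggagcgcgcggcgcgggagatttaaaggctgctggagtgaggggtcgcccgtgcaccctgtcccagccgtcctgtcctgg
TK1, chr17:78187023-78187302, minus strand: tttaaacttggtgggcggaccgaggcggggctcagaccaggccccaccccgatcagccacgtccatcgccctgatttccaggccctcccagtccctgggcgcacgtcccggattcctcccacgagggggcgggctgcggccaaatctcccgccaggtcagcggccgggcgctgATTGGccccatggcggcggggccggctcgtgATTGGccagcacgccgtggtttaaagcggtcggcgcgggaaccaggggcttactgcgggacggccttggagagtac
CAD, chr2:27217119-27217398, plus strand: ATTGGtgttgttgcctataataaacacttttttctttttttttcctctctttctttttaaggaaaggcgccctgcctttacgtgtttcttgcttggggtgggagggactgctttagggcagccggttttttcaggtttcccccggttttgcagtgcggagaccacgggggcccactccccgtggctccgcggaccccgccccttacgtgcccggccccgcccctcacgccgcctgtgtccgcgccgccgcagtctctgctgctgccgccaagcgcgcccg
DCK, chr4:70993399-70993678, plus strand: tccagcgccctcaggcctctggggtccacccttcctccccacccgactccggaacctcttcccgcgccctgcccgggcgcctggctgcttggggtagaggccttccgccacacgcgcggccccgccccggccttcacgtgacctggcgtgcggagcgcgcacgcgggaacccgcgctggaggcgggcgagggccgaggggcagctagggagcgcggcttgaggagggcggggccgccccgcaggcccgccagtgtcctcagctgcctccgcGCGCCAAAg
In the TYMS window the match was TTTCCCGC on the opposite strand, with its first base at position -39 from the start. In the DCK window it was TTTGGCGC on the opposite strand at position 22. RRM2 had CCAAT at positions -123, -93 and -66 on its own strand, and TK1 had it at positions -77 and -46 on the opposite strand. CAD had a single CCAAT at the edge of its window, at position -250 on the opposite strand. Among the windows not printed, one of the 4 of DUT held TTTGGCGC at position -27 and TTTCCCGC at position -42. These are matches of letters in a window, and binding was not measured.

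**Figure D1:**
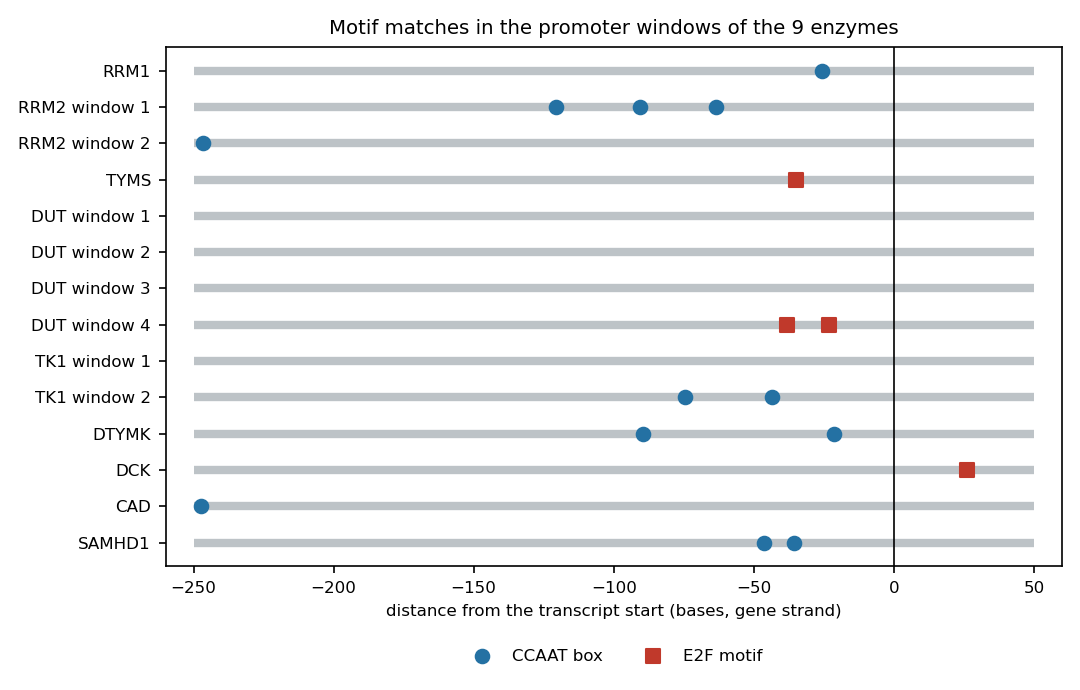
Position of each motif match relative to the annotated start site (x axis, in bases; the start is at 0) in the 14 RefSeq windows of the 9 genes (y axis, 1 row per window). E2F matches are seen for TYMS, DCK and 1 DUT window, and CCAAT matches for the other 6 genes.

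FPKM is scaled to length, so levels of different genes can be set beside each other, but only roughly. Other genes share 39.1% of the TYMS exon bases (ENOSF1), 20.2% of those of RRM2 (AC007240.1) and 6.17% of those of DCK (MOB1B). How reads in shared exons were counted is unknown, as is the length used for scaling. The order, the summed level and the ratios between genes below carry this limit. With control siRNA the order, from the highest mean down, was RRM1, RRM2, TK1, TYMS, DUT, SAMHD1, CAD, DTYMK and DCK. The ranges of RRM2 and TK1 overlapped there, as did those of SAMHD1 and CAD. After E2F1 siRNA the order was RRM1, TK1, RRM2, DUT, TYMS, SAMHD1, CAD, DTYMK and DCK, and the neighbours RRM2 and DUT, TYMS and SAMHD1, and CAD and DTYMK overlapped. After E2F3 siRNA it was RRM1, RRM2, TYMS, TK1, DUT, SAMHD1, DTYMK, CAD and DCK, where TYMS and TK1 overlapped, as did TK1 and DUT. RRM1 was the highest and DCK the lowest in all 3 groups. The summed level of the 9 genes was 723 ± 3.45 FPKM after E2F1 siRNA, 718 ± 10.1 FPKM after E2F3 siRNA and 802 ± 10.1 FPKM with control siRNA (SD, n = 3 each). This sum was not tested.

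**Figure D2:**
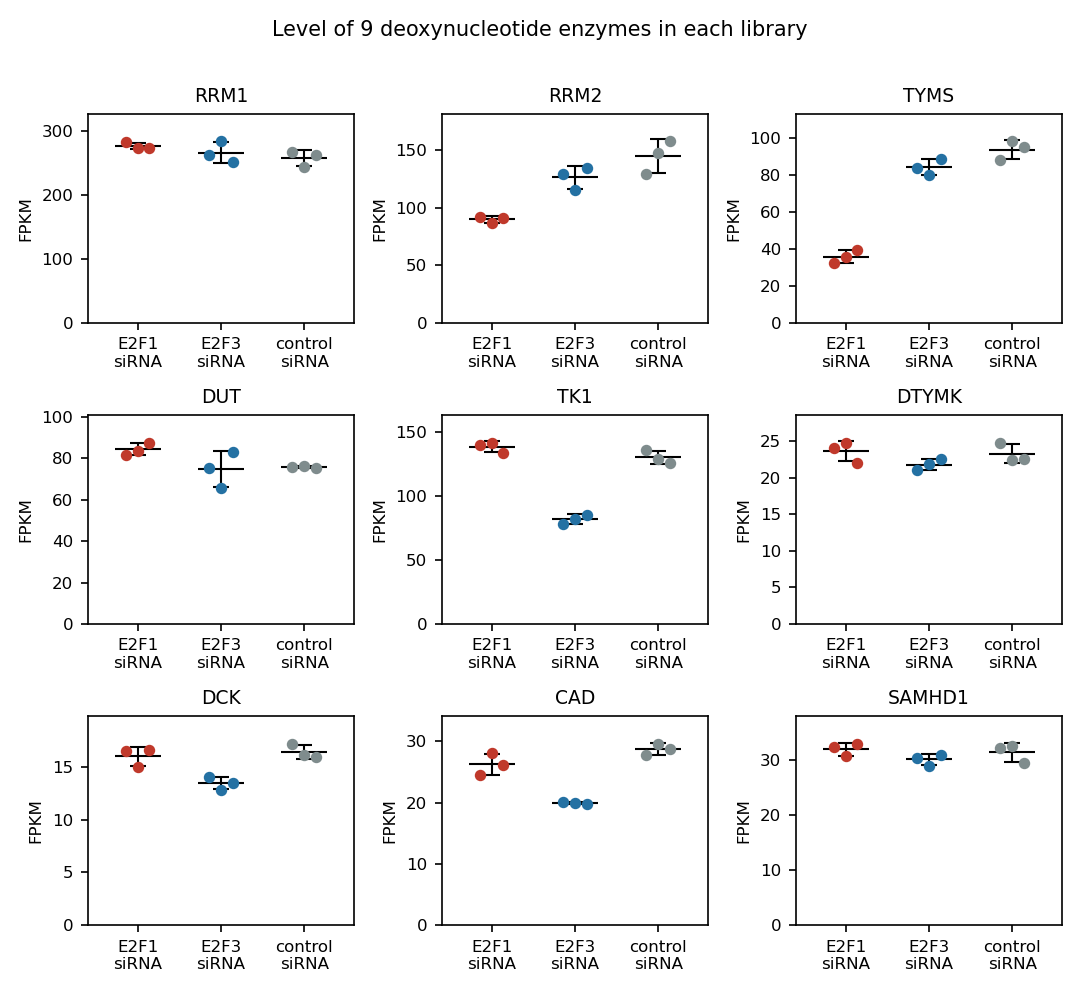
FPKM of the 9 genes in each library, 1 panel per gene, with E2F1 siRNA, E2F3 siRNA and control siRNA from left to right; points are libraries, bars are means and error bars are SDs (n = 3 each). TYMS and RRM2 are lowest after E2F1 siRNA, and TK1, CAD and DCK are lowest after E2F3 siRNA.

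After E2F1 siRNA 2 of the 9 genes fell, where 17.3% of all genes tested did. TYMS, which makes thymidylate, was at 38.3% of its mean level in control cells, and RRM2, the small subunit of ribonucleotide reductase, at 62.1%. After E2F3 siRNA 3 others fell: TK1, the cytosolic thymidine kinase, to 62.9%, CAD, the enzyme of the first steps of pyrimidine synthesis, to 69.4%, and DCK, the deoxycytidine kinase, to 81.9%. Of all genes tested, 16.4% fell after E2F3 siRNA. None of the 9 genes passed the test as higher in either comparison, where 20.5% of all genes did after E2F1 siRNA and 21.1% after E2F3 siRNA. Each of the 5 genes that fell also differed between the knockdowns themselves, a comparison in which 45.5% of all genes tested passed.

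TYMS was at 32.5, 35.6 and 39.4 FPKM after E2F1 siRNA, at 83.6, 79.9 and 88.6 FPKM after E2F3 siRNA, and at 87.8, 98.0 and 95.2 FPKM with control siRNA. The highest library after E2F1 siRNA was far below the lowest of either other group, while the groups after E2F3 siRNA and with control siRNA overlapped. TYMS is the enzyme that fluorouracil and related drugs inhibit. It lies on chromosome 18 from 657604 to 673578 on the plus strand (GRCh38, GENCODE 29, as for all genes below). Its log2 change after E2F1 siRNA was -1.36 (SE 0.07, 95% interval -1.53 to -1.20, adjusted p 8.66e-07 by limma with Benjamini-Hochberg), and 66 of the 13777 genes tested had a lower value. After E2F3 siRNA its log2 change was -0.15 (95% interval -0.32 to 0.01, limma adjusted p 0.123), which did not pass. Between the knockdowns, E2F3 siRNA over E2F1 siRNA, it was 1.21 (SE 0.07, 95% interval 1.05 to 1.37, limma adjusted p 1.18e-06).

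Of the bases in TYMS exons, 39.1% also lie in exons of ENOSF1, which runs on the opposite strand, and whether the counting used strand is not given in the sources used here. ENOSF1 was at 19.1 ± 0.302 FPKM after E2F1 siRNA, 21.7 ± 1.94 FPKM after E2F3 siRNA and 20.5 ± 1.79 FPKM with control siRNA (SD, n = 3 each). It passed the test in none of the 3 comparisons, with log2 changes of -0.09 after E2F1 siRNA, 0.08 after E2F3 siRNA and 0.17 between E2F3 and E2F1 siRNA (limma adjusted p 0.390, 0.472 and 0.107). The antisense gene TYMSOS shares 7.41% of the TYMS exon bases and had group means of at most 1.10 FPKM. Processed copies named after TYMS, RRM2 or DUT, 13 in all, had group means of at most 0.507 FPKM.

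RRM2 was at 92.3, 86.3 and 91.2 FPKM after E2F1 siRNA, at 129, 115 and 135 FPKM after E2F3 siRNA, and at 129, 148 and 158 FPKM with control siRNA. The libraries given E2F1 siRNA were below all 6 others, and those given E2F3 siRNA overlapped with the controls. RRM2 carries the tyrosyl radical that ribonucleotide reductase needs and is degraded after S phase, which makes it the limiting subunit in many cells. It lies on chromosome 2 from 10120698 to 10131419 on the plus strand. Its log2 change was -0.68 after E2F1 siRNA (SE 0.08, 95% interval -0.85 to -0.50, limma adjusted p 1.07e-04), and 574 genes had a lower value. After E2F3 siRNA it was -0.19 (95% interval -0.37 to -0.02, limma adjusted p 0.0753), which did not pass; under RLE scaling it passed at -0.25 (limma adjusted p 0.0373), and without control replicate 1 at -0.28 (limma adjusted p 0.0165). The direct difference, E2F3 siRNA over E2F1 siRNA, was 0.48 (SE 0.08, 95% interval 0.31 to 0.66, limma adjusted p 7.42e-04). AC007240.1, annotated on the same strand over 20.2% of the RRM2 exon bases, had group means between 1.31 and 2.0 FPKM.

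RRM1, the large subunit that holds the catalytic and regulatory sites, passed none of the 3 tests. It was at 282, 274 and 274 FPKM after E2F1 siRNA, at 263, 283 and 251 FPKM after E2F3 siRNA, and at 267, 243 and 263 FPKM with control siRNA. The libraries given E2F1 siRNA lay above the controls without overlap, yet the log2 change of 0.10 (95% interval -0.01 to 0.22, limma adjusted p 0.139) did not pass. After E2F3 siRNA the log2 change was 0.04 (limma adjusted p 0.524). The ratio of RRM2 to RRM1 within a library was 0.325 ± 0.00895 after E2F1 siRNA, 0.478 ± 0.0656 after E2F3 siRNA and 0.564 ± 0.0694 with control siRNA (SD, n = 3 each). RRM2B, the p53-induced small subunit that serves outside S phase, was at 10.6, 9.04 and 11.3 FPKM after E2F1 siRNA, at 11.8, 14.6 and 15.5 FPKM after E2F3 siRNA, and at 12.9, 10.4 and 11.6 FPKM with control siRNA. It did not pass against control in either knockdown (log2 -0.16 after E2F1 siRNA and 0.24 after E2F3 siRNA, limma adjusted p 0.313 and 0.134). It passed between E2F3 and E2F1 siRNA (log2 0.40, limma adjusted p 0.0186), a call lost in 4 of 18 other settings, with values of 0.32 without E2F1 siRNA replicate 2, 0.37 without E2F3 siRNA replicate 2 and 0.33 without E2F3 siRNA replicate 3, and lost as well with no filter on low values.

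TK1 was at 140, 142 and 134 FPKM after E2F1 siRNA, at 78.2, 82.3 and 85.3 FPKM after E2F3 siRNA, and at 136, 129 and 126 FPKM with control siRNA. All 3 libraries given E2F3 siRNA lay below the other 6, and the groups given E2F1 siRNA and control siRNA overlapped. TK1 phosphorylates salvaged thymidine and is, like RRM2, a protein of S phase cells. It lies on chromosome 17 from 78174075 to 78187233 on the minus strand. The log2 change after E2F3 siRNA was -0.66 (SE 0.05, 95% interval -0.77 to -0.56, limma adjusted p 5.41e-06), and 571 genes had a lower value. After E2F1 siRNA it was 0.09 (95% interval -0.02 to 0.19, limma adjusted p 0.165). E2F3 siRNA over E2F1 siRNA gave -0.75 (SE 0.05, 95% interval -0.85 to -0.65, limma adjusted p 1.41e-06).

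Both TYMS and TK1 supply dTMP, one de novo and one by salvage. The ratio of TYMS to TK1 was 0.233, 0.251 and 0.294 in the libraries given E2F1 siRNA, 1.07, 0.971 and 1.04 in those given E2F3 siRNA, and 0.646, 0.760 and 0.757 in the controls. The 3 groups did not overlap, with the controls in between. Both ratios were chosen after the values were seen and were not tested. DTYMK, the kinase that takes dTMP from either route to dTDP, was at 23.6 ± 1.39 FPKM after E2F1 siRNA, 21.8 ± 0.760 FPKM after E2F3 siRNA and 23.3 ± 1.32 FPKM with control siRNA. Its log2 changes of 0.02 after E2F1 siRNA and -0.09 after E2F3 siRNA did not pass (limma adjusted p 0.833 and 0.278).

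CAD was at 24.6, 28.0 and 26.1 FPKM after E2F1 siRNA, at 20.1, 19.96 and 19.8 FPKM after E2F3 siRNA, and at 27.7, 29.6 and 28.8 FPKM with control siRNA. The 3 libraries given E2F3 siRNA lay close together and below all others. CAD is a single protein with carbamoyl phosphate synthetase, aspartate transcarbamylase and dihydroorotase activity, and lies on chromosome 2 from 27217390 to 27243943 on the plus strand. Its log2 change was -0.50 after E2F3 siRNA (SE 0.06, 95% interval -0.63 to -0.38, limma adjusted p 1.01e-04), and 982 genes had a lower value. After E2F1 siRNA it was -0.13 (95% interval -0.25 to -0.0015, limma adjusted p 0.104), which did not pass; without E2F1 siRNA replicate 2 it was -0.17 and passed (limma adjusted p 0.0417). Between E2F3 and E2F1 siRNA it was -0.38 (SE 0.06, limma adjusted p 4.68e-04).

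DCK was at 16.5, 15.0 and 16.6 FPKM after E2F1 siRNA, at 14.1, 12.9 and 13.5 FPKM after E2F3 siRNA, and at 17.3, 16.2 and 16.0 FPKM with control siRNA. The libraries given E2F3 siRNA were again the lowest, and the other groups overlapped. DCK phosphorylates deoxycytidine, deoxyadenosine and deoxyguanosine, activates the drugs cytarabine and gemcitabine, and lies on chromosome 4 from 70992538 to 71030914 on the plus strand. The log2 change after E2F3 siRNA was -0.27 (SE 0.06, 95% interval -0.41 to -0.13, limma adjusted p 0.00775), and 2238 genes had a lower value. After E2F1 siRNA it was -0.04 (95% interval -0.18 to 0.10, limma adjusted p 0.684), and E2F3 siRNA over E2F1 siRNA gave -0.23 (SE 0.06, 95% interval -0.37 to -0.09, limma adjusted p 0.0128). MOB1B, on the same strand, shares 6.17% of the DCK exon bases and had means of 3.62 FPKM after E2F1 siRNA, 6.37 FPKM after E2F3 siRNA and 4.93 FPKM with control siRNA. It fell after E2F1 siRNA (log2 -0.36, limma adjusted p 0.00742) and rose after E2F3 siRNA (log2 0.31, limma adjusted p 0.0157).

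The enzymes that remove deoxynucleotides passed none of the 3 tests. DUT, which hydrolyses dUTP and so keeps uracil out of DNA, was at 81.9, 83.7 and 87.7 FPKM after E2F1 siRNA, at 75.5, 65.9 and 83.2 FPKM after E2F3 siRNA, and at 75.7, 76.1 and 75.3 FPKM with control siRNA. After E2F1 siRNA its values lay above the controls without overlap, with a log2 change of 0.15 (95% interval -0.01 to 0.32, limma adjusted p 0.123) that did not pass. The spread after E2F3 siRNA was the widest of the 3 groups. With only the 6 libraries compared, or without E2F3 siRNA replicate 2, the same change passed (limma adjusted p 0.0182 and 0.0290). Between E2F3 and E2F1 siRNA its log2 difference of -0.18 did not pass (limma adjusted p 0.0723), though it did at -0.22 with RLE scaling and at -0.26 without E2F3 siRNA replicate 3 (limma adjusted p 0.0428 and 0.0103). SAMHD1, which cuts deoxynucleoside triphosphates back to deoxynucleosides, was at 31.96 ± 1.20 FPKM after E2F1 siRNA, 30.1 ± 1.04 FPKM after E2F3 siRNA and 31.4 ± 1.75 FPKM with control siRNA. Its log2 changes of 0.03 after E2F1 siRNA and -0.06 after E2F3 siRNA did not pass (limma adjusted p 0.737 and 0.465).

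**Figure D3:**
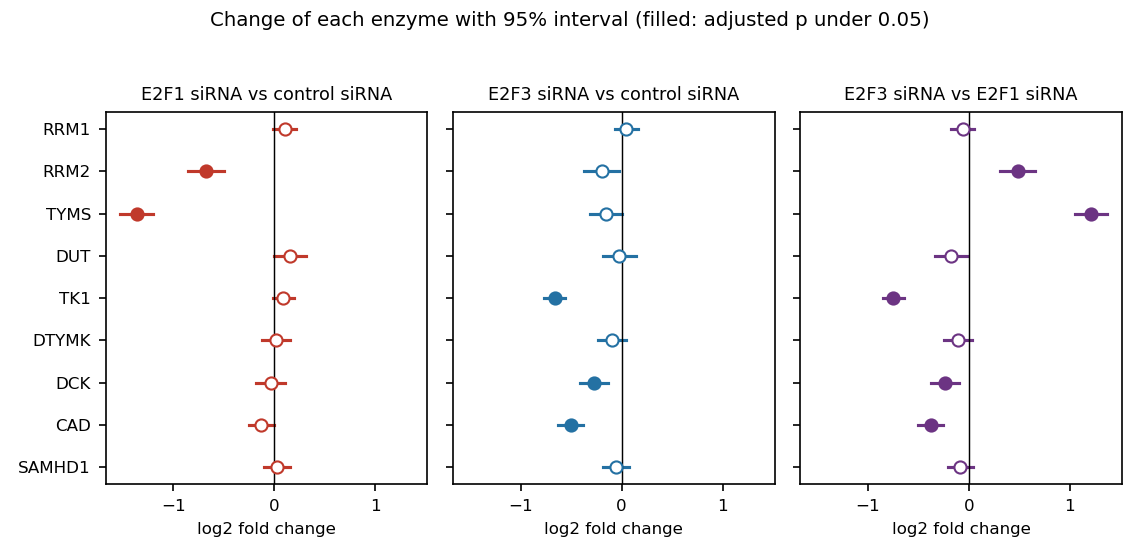
Log2 change of each of the 9 genes with its 95% interval (limma) for E2F1 siRNA against control siRNA, E2F3 siRNA against control siRNA and E2F3 siRNA against E2F1 siRNA; filled points passed an adjusted p of 0.05. TYMS has the lowest value after E2F1 siRNA (-1.36) and TK1 the lowest after E2F3 siRNA (-0.66), and the direct comparison puts TYMS and RRM2 above 0 and TK1, CAD and DCK below it.

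Counted over the 9 genes, 0 rose, 2 fell and 7 did not pass after E2F1 siRNA. Of all genes tested, 37.8% passed in that comparison, 20.5% as higher and 17.3% as lower. After E2F3 siRNA 0 rose, 3 fell and 6 did not pass, where 37.6% of all genes passed, 21.1% as higher and 16.4% as lower. RLE scaling gave 2258 higher and 2793 lower genes in this comparison in place of 2913 and 2266, and added RRM2 to the genes that fell. Between E2F3 and E2F1 siRNA 2 were higher, 3 were lower and 4 did not pass, with 45.5% of all genes passing, 23.5% as higher and 22% as lower. There 3237 genes were higher and 3037 lower, but 2848 and 3455 with RLE scaling and 2913 and 3374 with upper-quartile scaling. The share of the 9 genes that passed was thus 22.2% after E2F1 siRNA, 33.3% after E2F3 siRNA and 55.6% in the direct comparison, and no difference of these shares from those of all genes was tested. The median log2 change of the 9 was 0.02 after E2F1 siRNA and -0.15 after E2F3 siRNA, against 0.03 and 0.04 over all genes tested, and -0.11 against 0.02 in the direct comparison. Groups did not overlap for 4 of the 9 genes after E2F1 siRNA, 3 after E2F3 siRNA and 5 in the direct comparison, while 50.3%, 49.5% and 53.8% of all genes had such groups. Both comparisons with control share the same 3 control libraries.

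Markers of cell cycle phase moved as well. Their counts are to be read beside the shares of all genes tested, and no difference from these was tested. After E2F1 siRNA 20.5% of all genes rose and 17.3% fell, and after E2F3 siRNA 21.1% rose and 16.4% fell. In the direct comparison 23.5% were higher and 22% lower. Of 14 S-phase markers, among them MCM2 to MCM7, PCNA and CDC6, 8 rose and 2 fell after E2F1 siRNA (median log2 change 0.24), and 2 rose and 7 fell after E2F3 siRNA (median -0.20; with RLE scaling 0 rose and 8 fell). The 2 that fell after E2F1 siRNA were UHRF1 (log2 -0.33) and CCNE2 (log2 -0.18), which fell after E2F3 siRNA too (log2 -1.91 and -0.85). The 2 that rose after E2F3 siRNA were MCM2 (log2 0.18) and MCM7 (log2 0.14), which also rose after E2F1 siRNA. In the direct comparison 0 of the 14 S-phase markers were higher and 13 were lower after E2F3 siRNA. Their summed level was 1505 to 1538 FPKM after E2F1 siRNA, 1125 to 1185 FPKM after E2F3 siRNA and 1271 to 1309 FPKM with control siRNA. Of 11 mitotic markers 8 rose and 1 fell after E2F1 siRNA, and 2 rose and 1 fell after E2F3 siRNA, with summed levels of 843 to 878 FPKM after E2F1 siRNA, 608 to 634 FPKM after E2F3 siRNA and 629 to 654 FPKM with control siRNA. TYMS and RRM2 thus fell in libraries with higher summed S-phase and mitotic markers, and TK1, CAD and DCK fell in libraries with lower summed S-phase markers. Such sums weigh the highest genes most, among the S-phase markers MCM4 with a mean of 303 FPKM over the 9 libraries. Whether the markers themselves depend on E2F1 or E2F3 was not tested, so they are not shown to measure phase alone. The part of cell cycle phase in these changes was not tested. In bulk RNA, fewer cells in a phase and less RNA per cell cannot be told apart.

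The genes differed in which others their profile over the 9 libraries resembled most, measured as the root mean square (RMS) difference of centred log2(FPKM + 1) among 9417 protein-coding genes with a mean of at least 5 FPKM over these libraries. For TYMS these were TMEM52B (0.0852) and CERS6 (0.0905), for RRM2 SPRY2 (0.0766) and LMAN2L (0.0804), and for TK1 DBNL (0.0421) and PLCB3 (0.0518). For CAD they were DHPS (0.0429) and LPCAT3 (0.0449), and for DCK SLC20A1 (0.0360) and HSPA5 (0.0379). For the genes that passed no test they were MAP2K3 and PHF23 (RRM1), KATNAL1 and C11orf58 (DTYMK), HMGN1 and RAE1 (DUT), and FH and CUL2 (SAMHD1). Among the 9 genes themselves DTYMK and SAMHD1 were the closest pair (0.0817), and TYMS and TK1 the farthest apart (0.838). For scale, the RMS deviation of TYMS from its own mean was 0.615 and that of DCK 0.131. For DTYMK and SAMHD1 it was 0.0753 and 0.0609, so the distance between these 2 genes exceeded the variation of either. All 9 libraries enter each value, so group differences and single libraries weigh in alike.

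Other genes of nucleotide metabolism were taken from 5 lists, of which 52 of 54 genes were tested. Every gene said below to have risen or fallen passed the limma test. After E2F1 siRNA 14 rose, 11 fell and 27 did not pass, and after E2F3 siRNA 8 rose, 11 fell and 33 did not pass. RLE scaling gave 12 that rose and 11 that fell after E2F1 siRNA, and 6 that rose and 15 that fell after E2F3 siRNA. The median log2 changes of 0.03 and 0.01 lay near those of all genes. In the direct comparison 10 were higher, 18 were lower and 24 did not pass after E2F3 siRNA (median -0.04). With RLE scaling 8 were higher and 20 were lower there. Of all genes tested, 20.5% rose and 17.3% fell after E2F1 siRNA, and 21.1% rose and 16.4% fell after E2F3 siRNA. Between the knockdowns 23.5% of all genes were higher and 22% lower after E2F3 siRNA. The counts of each list below are to be read beside these shares, and no difference from them was tested.

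Of 9 tested genes around thymidylate supply, 5 rose and 1 fell after E2F1 siRNA (median log2 change 0.23), in the libraries where TYMS fell. SHMT1, which loads the one-carbon unit that thymidylate synthase transfers, was at 58.9, 61.4 and 65.0 FPKM after E2F1 siRNA, against 46.6, 45.0 and 45.6 FPKM with control siRNA (log2 0.42, limma adjusted p 6.09e-05). The groups did not overlap. NME4, a mitochondrial nucleoside diphosphate kinase, fell to 24.6 ± 2.22 FPKM after E2F1 siRNA, against 31.5 ± 2.33 FPKM with control siRNA (log2 -0.35).

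After E2F3 siRNA 4 of these 9 rose and 1 fell (median 0.15; with RLE scaling 2 rose and 1 fell). DCTD, which deaminates dCMP to the dUMP that TYMS uses, rose in both, to 55.0 ± 4.17 FPKM after E2F1 siRNA and 59.2 ± 0.954 FPKM after E2F3 siRNA, against 44.4 ± 1.23 FPKM with control siRNA (log2 0.30 and 0.41). CMPK1, the kinase of UMP and CMP, did too, at 101.5 ± 2.52 FPKM after E2F1 siRNA and 100.1 ± 3.05 FPKM after E2F3 siRNA, against 86.7 ± 2.54 FPKM with control siRNA (log2 0.23 and 0.21). The gene that fell was CMPK2, a mitochondrial kinase named here after its values were seen, with 0.673 FPKM after E2F3 siRNA and 1.82 FPKM with control siRNA (log2 -0.76, limma adjusted p 0.0031). NME4 was higher after E2F3 siRNA than after E2F1 siRNA (log2 0.50), and SHMT1 was lower (log2 -0.39).

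Downstream of CAD, 3 of the 4 remaining genes of pyrimidine synthesis rose and 1 fell after E2F1 siRNA (median log2 change 0.31; with RLE scaling 2 rose and 1 fell). UMPS, which finishes UMP, rose after E2F1 siRNA to 30.7 ± 1.44 FPKM, against 23.2 ± 1.18 FPKM with control siRNA (log2 0.39). DHODH passed only at the edge of the threshold (log2 0.28, limma adjusted p 0.0499995). Its level was 10.4 ± 1.41 FPKM after E2F1 siRNA, against 8.31 ± 0.577 FPKM with control siRNA. The paralogues of CTP synthase moved apart: CTPS1 rose to 124 ± 11.2 FPKM after E2F1 siRNA, against 97.6 ± 3.76 FPKM with control siRNA (log2 0.34), and CTPS2 fell to 5.35 ± 0.297 FPKM after E2F1 siRNA, against 7.21 ± 0.363 FPKM with control siRNA (log2 -0.37). After E2F3 siRNA, where CAD fell, CTPS2 was the 1 gene of this list to pass. It was at 10.6 ± 0.151 FPKM after E2F3 siRNA, against 7.21 ± 0.363 FPKM with control siRNA (log2 0.50). Between the knockdowns CTPS2 was higher after E2F3 siRNA (log2 0.87), and UMPS was lower (log2 -0.27). DHODH was also lower after E2F3 siRNA (log2 -0.28), a call lost in 9 of 18 other settings.

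Of 9 tested genes of nucleotide pool control, 2 rose and 1 fell after E2F1 siRNA, and 2 rose and 2 fell after E2F3 siRNA. ITPA, which clears inosine triphosphates, rose in both, to 54.9 ± 3.14 FPKM after E2F1 siRNA and 55.3 ± 1.83 FPKM after E2F3 siRNA, against 41.9 ± 2.14 FPKM with control siRNA (log2 0.38 and 0.40). DCTPP1, which hydrolyses dCTP and its modified forms, rose after E2F1 siRNA to 84.2 ± 6.10 FPKM, against 71.4 ± 1.66 FPKM with control siRNA (log2 0.23). NT5E, the surface 5′-nucleotidase CD73, fell in both, to 9.41 ± 1.13 FPKM after E2F1 siRNA and 11.5 ± 0.866 FPKM after E2F3 siRNA, against 17.4 ± 0.620 FPKM with control siRNA (log2 -0.83 and -0.56). NT5C, a cytosolic nucleotidase of deoxynucleotides, fell after E2F3 siRNA to 17.4 ± 1.40 FPKM, against 22.2 ± 1.23 FPKM with control siRNA (log2 -0.34). Means are given with SD and n = 3 each here and above.

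**Figure D4:**
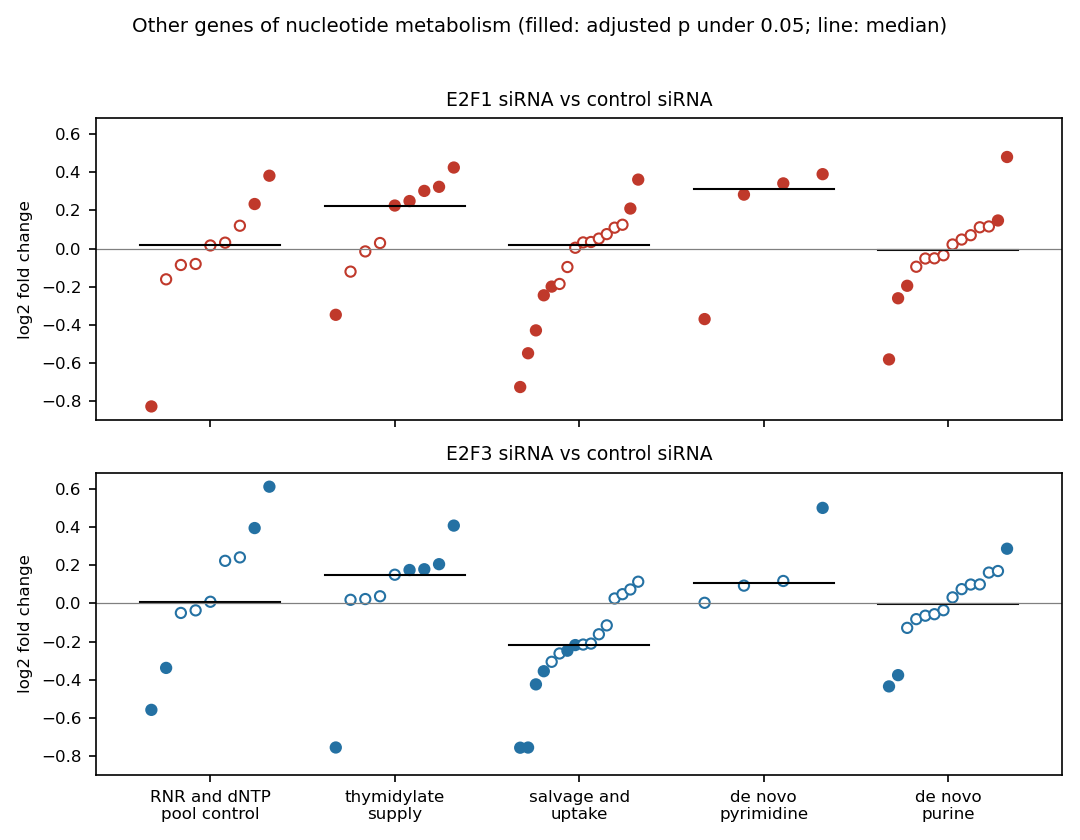
Log2 changes of the 52 tested genes of the 5 lists of other nucleotide genes, by list (x axis), for E2F1 siRNA against control siRNA (upper panel) and E2F3 siRNA against control siRNA (lower panel); each point is a gene, filled where it passed an adjusted p of 0.05 (limma), and lines are list medians. Most lists hold genes on either side of 0, with 14 higher and 11 lower genes after E2F1 siRNA and 8 higher and 11 lower after E2F3 siRNA (6 and 15 with RLE scaling).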

How the data were processed

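RNA of 9 libraries of HK1 cells was extracted with a mirVana kit and sequenced after standard Illumina preparation, per the labels' protocols. The submitters' processing notes name Trimmomatic, TopHat, HISAT2, HTSeq and DESeq with build GRCh38, without versions or an order of steps. As deposited, each library's table gives FPKM per gene, per the file headers, and no counts. Gene names and coordinates came from GENCODE 29, and start-site windows from RefSeq (GRCh38.p14).

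Genes reaching 1 FPKM in 3 or more of the 9 libraries (13777 genes) entered the analysis as log2(FPKM + 1), without further scaling. A single limma model (limma 3.58.1, R 4.3.3, trend on, robust fitting off) with a mean per group gave all 3 comparisons. All tests are two-sided; p-values were adjusted by Benjamini-Hochberg over every gene that entered. A group is said not to overlap where its lowest value exceeds the other's highest, or the reverse.

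The 9 genes and all lists were chosen with earlier results of these data known. Other genes were named by a rule: per list, comparison and direction, up to 2 passing genes with the largest change and at least 5 FPKM in a group, and for each of the 9 genes the 2 with the most similar profile. Some genes that the rule names are left out of this text. Depth came from the values of short genes with 1 exon (900 to 1500 bp), where 91.2 to 95.3% of low values fell near a whole step. The model was tested on simulated data. Other settings were RLE, upper-quartile or nuclear-gene scaling, no filter or 5 FPKM, an added constant of 0.1, robust fitting, a replicate term, only the 6 libraries compared, and leaving out each library.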

Additional observations from a re-analysis of the deposited data

Results flagged for a closer look

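For 5 of the 9 genes the effects of the knockdowns differed from each other by a test of the difference itself (limma, adjusted over 13777 genes, n = 3 each), which is why they are listed here. The log2 differences, E2F3 siRNA over E2F1 siRNA, were 1.21 for TYMS, 0.48 for RRM2, -0.75 for TK1, -0.38 for CAD and -0.23 for DCK. TYMS and RRM2 were higher in 3 of 3 libraries given E2F3 siRNA than in any given E2F1 siRNA, and TK1, CAD and DCK were lower in 3 of 3. These 5 genes were picked by this comparison, so the lack of overlap adds no support of its own. Of all genes tested, 45.5% passed in it and 53.8% had groups without overlap, and 5 of the 9 genes did in each case.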

How the results depend on the processing

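The 9 genes were fitted under 18 other settings, of which 9 leave out a library. All 10 calls among them (TYMS and RRM2 after E2F1 siRNA; TK1, CAD and DCK after E2F3 siRNA; all 5 between the knockdowns) kept direction and threshold in 18 of 18. TYMS after E2F1 siRNA stayed between -1.43 and -1.30. For DCK after E2F3 siRNA the adjusted p reached 0.0339, and in the direct comparison 0.0470 (limma). The count of genes higher after E2F1 siRNA was 0, against 1 (DUT) with only the 6 libraries compared; without each library in turn it was 0 to 1. Changes near 0 that passed no test turned sign: RRM1 after E2F3 siRNA was -0.011 with RLE scaling and -0.0025 to 0.084 without each library in turn; the cause was not tested. After E2F1 siRNA, leaving out a library gave -0.014 to 0.066 for DTYMK, -0.060 to 0.0077 for DCK and -0.018 to 0.056 for SAMHD1, and after E2F3 siRNA -0.10 to 0.065 for DUT. Replicate numbers were shared across groups. Deviations of same-numbered libraries had r of -0.106 to 0.112 over 9 pairs, with the own number highest in 6 of 18 cases. Between E2F1 and E2F3 siRNA, r was 0.112, 0.0292 and 0.0516 for replicates 1, 2 and 3. Between control siRNA and either knockdown it was negative for every same-numbered pair, from -0.106 to -0.00538. With a replicate block 4936, 4871 and 5982 genes passed (E2F1 siRNA against control, E2F3 siRNA against control, direct). Without the block these counts were 5210, 5179 and 6274. The calls among the 9 genes did not change with the block. The values are FPKM without counts, and precision at low values was not worked out.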

Other observations

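Of 16 genes of nucleoside salvage and uptake, 2 rose and 5 fell after E2F1 siRNA, where 20.5% of all genes tested rose and 17.3% fell. After E2F3 siRNA 0 rose and 6 fell (with RLE scaling 0 rose and 9 fell), where 21.1% of all genes rose and 16.4% fell. The median log2 change of the list was 0.02 after E2F1 siRNA and -0.22 after E2F3 siRNA, against 0.03 and 0.04 over all genes. CDA, which deaminates cytidine and deoxycytidine, was at 39.2, 43.9 and 42.6 FPKM after E2F3 siRNA, against 72.1, 69.1 and 73.0 FPKM with control siRNA (log2 -0.76, limma adjusted p 3.58e-06). PNP, the purine nucleoside phosphorylase, was at 128, 122 and 118 FPKM after E2F3 siRNA, against 216, 196 and 212 FPKM with control siRNA (log2 -0.76, limma adjusted p 1.57e-05). The groups did not overlap for either gene. After E2F1 siRNA CDA fell as well (log2 -0.25), as did PNP (log2 -0.20), and both were lower after E2F3 siRNA than after E2F1 siRNA (log2 -0.51 and -0.56). The PNP call after E2F1 siRNA was lost in 4 of 18 other settings, with no filter on low values and at -0.17 without control siRNA replicate 1, -0.19 without control siRNA replicate 3 and -0.13 without E2F1 siRNA replicate 3. After E2F1 siRNA the transporter SLC29A1 rose to 69.4 ± 2.53 FPKM, against 53.9 ± 3.19 FPKM with control siRNA (log2 0.36), and the lysosomal transporter SLC29A3 fell to 4.64 ± 0.422 FPKM, against 8.35 ± 0.883 FPKM with control siRNA (log2 -0.73). ADA, the adenosine deaminase, fell in both, to 17.5 ± 1.23 FPKM after E2F1 siRNA and 19.2 ± 1.62 FPKM after E2F3 siRNA, against 26.0 ± 0.567 FPKM with control siRNA (log2 -0.55 and -0.42). UCK2, a uridine-cytidine kinase, rose to 101.9 ± 1.87 FPKM after E2F1 siRNA and fell to 68.6 ± 1.07 FPKM after E2F3 siRNA, against 88.0 ± 1.85 FPKM with control siRNA (log2 0.21 and -0.36). Its direct difference, E2F3 siRNA over E2F1 siRNA, was -0.57. Errors are SDs with n = 3 each.

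Of 14 genes of de novo purine synthesis, 2 rose and 3 fell after E2F1 siRNA, and 1 rose and 2 fell after E2F3 siRNA. The shares over all genes tested are those given beside the salvage genes above. PRPS1, which makes the ribose donor PRPP, rose in both, to 103.5 ± 2.78 FPKM after E2F1 siRNA and 90.5 ± 5.17 FPKM after E2F3 siRNA, against 74.0 ± 4.23 FPKM with control siRNA (log2 0.48 and 0.29). PPAT, the committed step, fell in both, to 39.5 ± 1.17 FPKM after E2F1 siRNA and 36.5 ± 2.28 FPKM after E2F3 siRNA, against 47.6 ± 1.44 FPKM with control siRNA (log2 -0.26 and -0.38). ATIC, which completes IMP, was at 53.1, 46.4 and 53.8 FPKM after E2F1 siRNA, against 77.1, 80.5 and 72.9 FPKM with control siRNA (log2 -0.58). IMPDH1, on the guanine branch, fell after E2F3 siRNA to 67.7 ± 4.36 FPKM, against 91.8 ± 3.23 FPKM with control siRNA (log2 -0.44). GMPS rose after E2F1 siRNA by a log2 change of 0.15, a call lost in 8 of 18 other settings.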
